A study of Mus musculus with 8 samples.

Results

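Hadh and 9 further genes of mitochondrial fatty acid oxidation were followed in RNA from mouse pancreatic islets. The members were taken as a list of enzyme genes: Hadh, Hadha, Hadhb, Acadm, Acadl, Acads, Acadvl, Cpt1a, Cpt2 and Echs1. All 10 were present among the 13725 genes of the deposited table, and all 10 passed the filter on low values that left 12231 genes for testing. Hadh was chosen by its difference between the groups, seen before in these same libraries, and the other 9 for their place in the same pathway. The difference between the groups is therefore given for the members as a description with no test.

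The donors were female mice of the NOD strain, which is prone to autoimmune diabetes, at the age of 10 weeks. The 4 PAHSA libraries (replicates 1, 2, 3 and 4) came from mice given PAHSA, a lipid in which palmitic acid is esterified to a hydroxy stearic acid and which the sample labels spell PASHA. The 4 vehicle libraries (replicates 1, 3, 4 and 5) came from mice given the vehicle. No dose, route or length of treatment is stated in the sources used here. The design text counts 4 mice per group, whereas the protocol speaks of islets pooled from 2 mice, so whether a library is 1 mouse or a pool of 2 is unclear, and each p reflects only how far these libraries differ from each other, which may be technical. Total RNA of whole islets was sequenced, and recovered estimated counts were between 34461742 and 45236238 per library. Fewer cells of a type and less RNA per cell cannot be told apart in such bulk samples.

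In the mitochondrial matrix, fatty acids are shortened in rounds of a dehydrogenation, a hydration, a second dehydrogenation and a thiolytic cleavage, and each round releases acetyl-CoA. Long chains enter as carnitine esters, made by Cpt1a on the outer membrane and turned back into CoA esters by Cpt2 on the inner side. Acadvl, Acadl, Acadm and Acads carry out the first step on very long, long, medium and short chains. Echs1 hydrates short chains, and Hadh then oxidises the short and medium hydroxyacyl-CoA. Hadha and Hadhb are the subunits of the trifunctional protein, which does the later steps on long chains. Hadh is also known in beta cells for restraining glutamate dehydrogenase, and loss of its function in humans causes excess insulin secretion.

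The promoter windows of Hadh and of the Hadha and Hadhb pair are shown because Hadh is the gene with separated groups and because Hadha and Hadhb are divergent neighbours. Each window runs from 250 bases before to 50 bases after the gene start in RefSeq on build GRCm38.p6. The Hadh window is chr3:131272052-131272351 on the minus strand, and its capitals mark every match, on either strand, to the GC box GGGCGG, to the CCAAT box, to AGGTCA, a half-site of nuclear receptors, or to the E-box CACGTG. The Hadhb window is chr5:30155003-30155302 on the plus strand, and its capitals mark the 228 bases that also lie in the Hadha window.
Hadh: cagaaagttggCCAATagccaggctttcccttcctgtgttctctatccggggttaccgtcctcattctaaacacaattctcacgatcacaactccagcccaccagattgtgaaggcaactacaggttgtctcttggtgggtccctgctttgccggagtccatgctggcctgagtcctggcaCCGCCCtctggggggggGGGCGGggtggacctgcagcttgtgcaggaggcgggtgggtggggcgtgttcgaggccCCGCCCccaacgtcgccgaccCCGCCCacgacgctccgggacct
Hadhb: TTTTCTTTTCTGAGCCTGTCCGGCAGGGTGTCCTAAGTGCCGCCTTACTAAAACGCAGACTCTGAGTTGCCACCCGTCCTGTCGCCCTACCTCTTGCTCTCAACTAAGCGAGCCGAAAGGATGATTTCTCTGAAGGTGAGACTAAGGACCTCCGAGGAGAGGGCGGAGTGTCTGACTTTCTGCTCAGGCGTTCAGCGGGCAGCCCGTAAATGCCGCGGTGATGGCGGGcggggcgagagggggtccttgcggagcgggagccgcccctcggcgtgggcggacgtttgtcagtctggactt

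The Hadh window held 4 matches to GGGCGG and 1 to CCAAT, which do not overlap each other. It held no match to AGGTCA and no match to CACGTG. All 10 members had a window. GGGCGG was found in 8 of the 10 and in 35.7% of all 32851 windows, and AGGTCA in 4 of the 10 (Acadm, Acadvl, Cpt1a and Echs1) and in 16.3% of all windows. The only GGGCGG of the Hadha window lies in the bases shared with the Hadhb window, so that site counts for both genes. CCAAT was found in 2 of the 10 (Hadh and Cpt1a) and in 37.4% of all windows, and CACGTG in 0 of the 10 and in 7.15%. The members' windows were between 50.7% and 70.3% G and C, against a median of 52.7% over all windows, and the counts of GGGCGG were not adjusted for this. The starts of Hadha and Hadhb, on opposite strands, have 272 bases between them in RefSeq and 85 in GENCODE release M21.

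Hadh lay higher in PAHSA islets. Hadh (ENSMUSG00000027984, chromosome 3 from 131233419 to 131272101, minus strand, GRCm38) had levels of 8.33, 8.33, 8.28 and 8.34 log2 CPM in replicates 1, 2, 3 and 4 of PAHSA, against 7.92, 7.71, 8.07 and 7.89 log2 CPM in replicates 1, 3, 4 and 5 of vehicle. All 4 PAHSA libraries were above the highest vehicle library, and they lay closer together than the vehicle libraries did. The mean level was 8.32 ± 0.03 log2 CPM in PAHSA libraries, against 7.90 ± 0.15 log2 CPM in vehicle libraries (SD, n = 4 each). The difference was 0.42 on the log2 scale (SE 0.09, 95% confidence interval 0.22 to 0.63), a ratio of 1.34 (1.16 to 1.55). It stayed between 0.36 and 0.48 when any 1 library was left out. Across all genes tested, 252 (2.06%) had every PAHSA library above every vehicle library. Hadh was the only member with separated groups, and nothing is read from this count because the same contrast chose the gene.

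**Figure D1:**
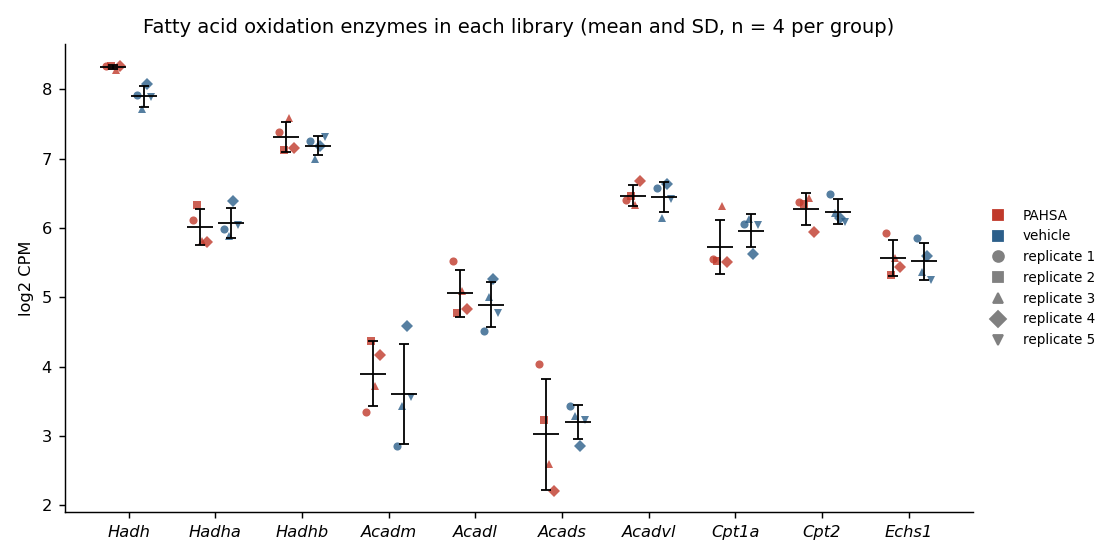
Level of each enzyme gene in log2 CPM (y axis) in every library, with PAHSA in red and vehicle in blue; marker shape gives the replicate number, the bar the mean and the whiskers the SD of 4 libraries. The PAHSA libraries of Hadh sit between 8.28 and 8.34, above the highest vehicle library at 8.07, while the groups of the other 9 genes overlap.

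The cell make-up of the libraries was read from marker lists. All 12 beta cell markers were in the table, and their summed level was 14.2% to 17.7% of CPM in PAHSA and 13.8% to 18.1% in vehicle, so the groups overlapped. Of the 12, 9 had a higher mean in PAHSA (75%, where 49.1% of all genes tested had). Their median difference was 0.20, and 0 of the 12 passed an adjusted p of 0.05 in limma. At an unadjusted p under 0.05, 3 of the beta cell markers were higher (25.0%, where 3.02% of all genes tested were). At that threshold 1 was lower (8.33%, where 4.29% of all genes tested were). Every PAHSA library was above every vehicle library in 2 of the 12 (16.7%), as in 2.06% of all genes tested. Alpha cell markers (7 of 7 in the table) took 6.69% to 8.10% in PAHSA and 6.10% to 6.98% in vehicle. Of the 7, 6 had a higher mean in PAHSA (85.7%, where 49.1% of all genes tested had), and 0 had an unadjusted limma p under 0.05. Acinar markers (21 of 22 in the table) took 0.0572% to 2.03% in PAHSA and 1.34% to 5.39% in vehicle. All 20 that were tested had a lower mean in PAHSA, where 49.1% of all genes tested had a higher one. Of these 20, 16 were lower at an unadjusted limma p under 0.05 (80%, where 4.29% of all genes tested were) and 0 were higher. In 0 of the 20 were the groups separated, and 0 passed an adjusted p of 0.05. With the mean of the acinar markers as a covariate, the Hadh difference was 0.45 (SE 0.12). The acinar markers themselves differed between the groups, with a median difference of -2.31, so this fit cannot separate acinar content from treatment. Duct markers (7 of 8) took 0.265% to 0.347% in PAHSA and 0.334% to 0.524% in vehicle. Of the 7 duct markers tested, 2 had a higher mean and 5 a lower one. Of them, 3 were lower at an unadjusted limma p under 0.05 (42.9%, where 4.29% of all genes tested were) and 0 were higher. In 2 of the 7 (28.6%) every PAHSA library was below every vehicle library, as in 1.95% of all genes tested. Delta and PP cell markers (4 of 4) took 0.678% to 0.856% in PAHSA and 0.764% to 0.975% in vehicle. The summed levels of the stellate cell (10 of 10 in the table), endothelial (4 of 7) and macrophage markers (3 of 9) were at most 0.0428% in any library, and those sums leave out the markers that were not analysed here. Of the 9 stellate cell markers tested, 8 had a lower mean in PAHSA and 1 a higher one. At an unadjusted limma p under 0.05, 1 of them was lower (11.1%, where 4.29% of all genes tested were). Of 11 T, NK and B cell markers only 2 were in the table, and the others were not analysed here. The part of beta, alpha, acinar and duct cells in the Hadh difference was not tested.

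Among the 10 members, 7 had a higher mean in PAHSA (5 to 8 when 1 library was left out) and 3 a lower one, where 49.1% of all genes tested were higher. The 7 include Hadh, which was chosen by its difference, so nothing is read from this count. The median difference was 0.04 over the members and -0.01 over all genes tested. The members' differences ran from -0.24 to 0.42. Hadh took 35.5%, 37.6%, 34.4% and 39.3% of the members' summed CPM in PAHSA replicates 1, 2, 3 and 4, against 30.0%, 29.7%, 32.1% and 30.9% in vehicle replicates 1, 3, 4 and 5. The other 9 together came to 553 ± 44 CPM in PAHSA and 539 ± 34 CPM in vehicle (SD, n = 4 each), and their groups overlapped. The larger share of Hadh in PAHSA thus mainly restates the difference by which it was chosen.

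**Figure D2:**
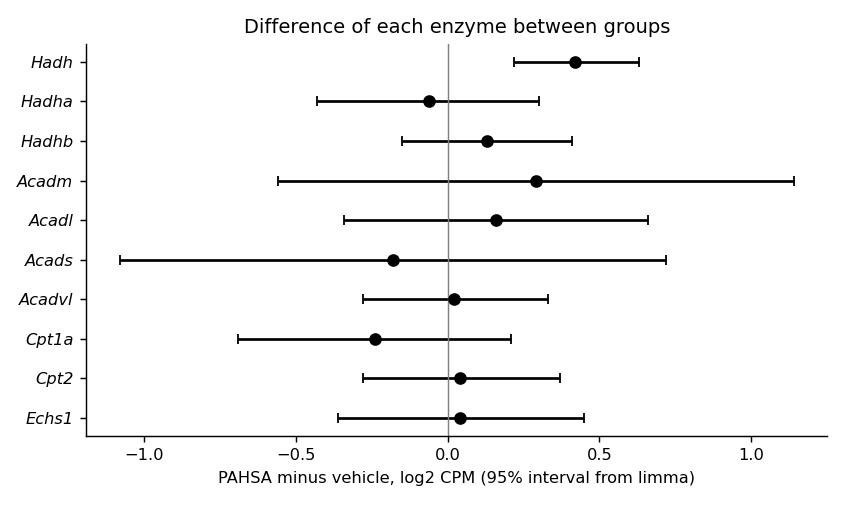
Difference of each enzyme gene, PAHSA minus vehicle in log2 CPM (x axis), with the 95% confidence interval from limma; genes run down the y axis. The differences run from -0.24 for Cpt1a to 0.42 for Hadh, and the intervals show the error of each difference, not a test, since Hadh was chosen by this difference.

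Neither carnitine transferase had separated groups. Cpt1a (ENSMUSG00000024900, chromosome 19 from 3322334 to 3385733), the step that malonyl-CoA inhibits, had 5.55, 5.52, 6.31 and 5.51 log2 CPM in PAHSA, against 6.06, 6.13, 5.62 and 6.04 log2 CPM in vehicle, in the same order of replicates. In each group 1 library lay apart: PAHSA replicate 3 was above all vehicle libraries and vehicle replicate 4 was below the other vehicle libraries. The difference of -0.24 (SE 0.20) was -0.43 without PAHSA replicate 3. Cpt2 had 6.38, 6.34, 6.43 and 5.94 log2 CPM in PAHSA, against 6.49, 6.22, 6.14 and 6.08 log2 CPM in vehicle, and differed by 0.04 (SE 0.15, 95% confidence interval -0.28 to 0.37). The Cpt2 groups overlapped, with the lowest library in PAHSA and the highest in vehicle.

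The 4 acyl-CoA dehydrogenases differed between groups by -0.18 to 0.29, with overlapping groups in each. Acadvl had 6.40, 6.46, 6.33 and 6.68 log2 CPM in PAHSA, against 6.58, 6.15, 6.63 and 6.42 log2 CPM in vehicle, a difference of 0.02 (SE 0.14). Acadl had 5.52, 4.78, 5.09 and 4.83 log2 CPM in PAHSA, against 4.51, 5.0, 5.27 and 4.78 log2 CPM in vehicle, a difference of 0.16 (SE 0.23). Replicate 1 was the highest PAHSA library and the lowest vehicle library of Acadl, and the difference was 0.01 without PAHSA replicate 1. Acadm, whose loss is a common inherited defect of the pathway in humans, had 3.34, 4.37, 3.72 and 4.17 log2 CPM in PAHSA, against 2.86, 3.43, 4.59 and 3.56 log2 CPM in vehicle. Its highest library was vehicle replicate 4, and the difference of 0.29 (SE 0.38) was 0.62 without that library and 0.04 without vehicle replicate 1. Acads had 4.04, 3.23, 2.60 and 2.21 log2 CPM in PAHSA, against 3.43, 3.28, 2.86 and 3.23 log2 CPM in vehicle, with both the highest and the lowest library in PAHSA. Its difference of -0.18 (SE 0.41) was -0.52 without PAHSA replicate 1 and 0.09 without PAHSA replicate 4.

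The later steps were as close between groups. Echs1 had 5.92, 5.32, 5.56 and 5.44 log2 CPM in PAHSA, against 5.86, 5.36, 5.60 and 5.25 log2 CPM in vehicle, a difference of 0.04 (SE 0.19, 95% confidence interval -0.36 to 0.45). Hadha (ENSMUSG00000025745, chromosome 5 from 30118304 to 30155162, minus strand) had 6.12, 6.33, 5.81 and 5.79 log2 CPM in PAHSA, against 5.98, 5.88, 6.39 and 6.04 log2 CPM in vehicle, a difference of -0.06 (SE 0.17). Hadhb (ENSMUSG00000059447, chromosome 5 from 30155248 to 30184593, plus strand) had 7.39, 7.13, 7.58 and 7.15 log2 CPM in PAHSA, against 7.25, 7.0, 7.18 and 7.31 log2 CPM in vehicle, a difference of 0.13 (SE 0.13). The subunit genes shown above with their shared promoter bases thus had small differences, neither larger than the spread between libraries. The Hadha difference changed sign in 4 of 18 alternatives, of which those of the filter and the variance model could not change it. Hadha minus Hadhb was between -1.77 and -0.81 log2 CPM in PAHSA libraries and between -1.27 and -0.80 in vehicle libraries.

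Exons of 3 members overlap a gene on the other strand in GENCODE M21, and the library kit does not mark strand. Acadvl shares 1151 bases with Dvl2 and Echs1 shares 142 bases with Paox, while Hadha shares 75 bases with Garem2, which was not analysed here. Reads from these stretches cannot be assigned to a strand. Exons of Hadh overlapped no other annotated gene.

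Per length, Hadh had the highest level of the 10. Divided by its longest annotated transcript, it stood at 85.2 ± 1.60 CPM per kb in PAHSA and 63.8 ± 6.48 CPM per kb in vehicle (SD, n = 4 each). The next in order was Acadvl at 41.0 ± 4.46 CPM per kb in PAHSA and 40.5 ± 5.82 in vehicle, with a highest library of 47.3 below the lowest Hadh library of 55.7. Hadhb (36.5 ± 5.52 in PAHSA, 33.2 ± 3.03 in vehicle) and Cpt2 (32.9 ± 4.74 in PAHSA, 31.9 ± 4.11 in vehicle) followed, and the ranges of Acadvl, Hadhb and Cpt2 overlapped from neighbour to neighbour. A gap then separated Cpt2, whose lowest library was at 26.0 CPM per kb, from Acadl, whose highest was at 24.0. Acadl, Hadha, Cpt1a, Echs1, Acadm and Acads came after it in that order, each overlapping its neighbour. Acads was lowest at 4.52 ± 2.61 CPM per kb in PAHSA and 4.59 ± 0.727 in vehicle. Hadh remained first with the union of exons (64.2 in PAHSA, 48.1 in vehicle) and with the longest coding transcript (179 in PAHSA, 134 in vehicle) as the length. The places below it changed with the length used: Echs1 was 8th with the longest transcript and 5th with the longest coding transcript.

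**Figure D3:**
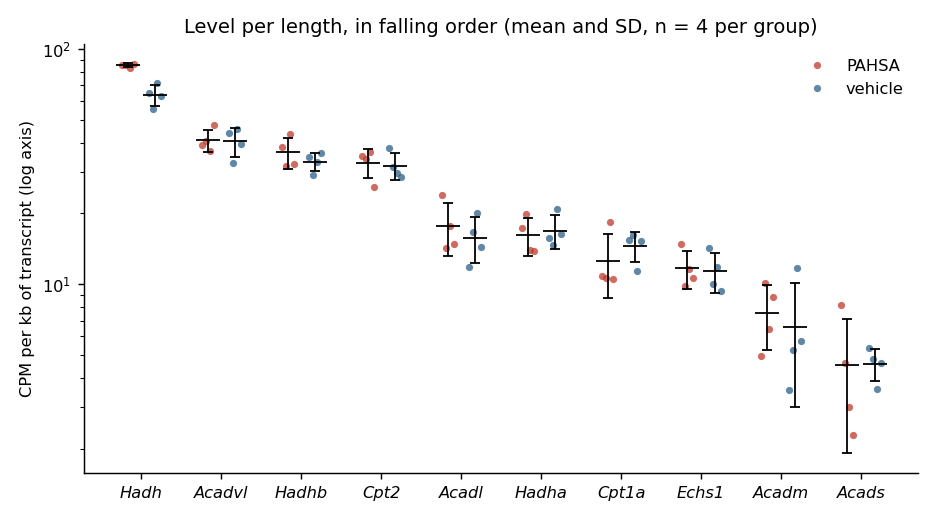
Level of each enzyme gene in CPM per kb of its longest annotated transcript (y axis, log scale), genes in falling order along the x axis, with PAHSA in red and vehicle in blue; points are libraries, bars means and whiskers the SD of 4 libraries. Hadh is first, and no library of Acadvl, at most 47.3, reaches the lowest Hadh library at 55.7.

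The spread between libraries within a group differed among the members. It was smallest in Hadh, with a pooled SD of 0.11 on the log2 scale, and 18.3% of the 404 genes of similar level (within 0.5 log2 CPM) had a smaller one. Hadh was chosen by its group difference in these same libraries, which can favour a small spread, so nothing is read from its place. Acadm and Acads had the largest SDs, at 0.61 and 0.59. These were also the members with the lowest mean log2 CPM, and genes of their level had median SDs of 0.46 and 0.57. Set against genes of similar level, the Acadm SD still stood highest of the members. Cpt1a came next, with an SD of 0.32 that was larger than that of 73.2% of the genes at its level. Within groups, Pearson correlations of the members' deviations from the group means over the 8 libraries ran from -0.66 (Hadha with Cpt1a) to 0.85 (Hadh with Acadvl), with a median of 0.15 over the 45 pairs. Hadha with Hadhb was at -0.15. These values describe 8 libraries that share a scaling, and 26 of the 45 were positive.

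Genes most like Hadh were sought among 7511 protein-coding genes with a mean above 4 log2 CPM, by the Pearson correlation of deviations from the group means over the 8 libraries. The 6 highest were Rexo4 at 0.98, Nudcd1 at 0.96, Plpp6 at 0.95, Mrpl28 at 0.94, Tspan2 at 0.94 and Guk1 at 0.94. Rexo4 is named for an exonuclease, Plpp6 encodes a lipid phosphatase, Mrpl28 a protein of the mitochondrial ribosome, Tspan2 a tetraspanin and Guk1 the guanylate kinase. Vehicle libraries carried 96.7% of the within-group sum of squares of Hadh, so the likeness rests mainly on vehicle replicate 3 being low and vehicle replicate 4 high. Mrpl28 had 6.20, 6.25, 6.19 and 6.17 log2 CPM in PAHSA, against 5.86, 5.54, 6.27 and 5.76 log2 CPM in vehicle. Vehicle replicate 4 was its highest library, so its groups overlapped, and it differed by 0.35 (SE 0.16). The Mrpl28 difference was 0.48 without vehicle replicate 4, there at an unadjusted p under 0.05, and 0.24 without vehicle replicate 3. The other 5 of these genes differed between the groups by -0.31 to 0.11. The Nudcd1 difference was -0.50 without vehicle replicate 3, there at an unadjusted p under 0.05, and -0.15 without vehicle replicate 4. The likeness that picked these genes rests mainly on these libraries, so nothing is read from the fits without them.

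Other genes of fatty acid oxidation were taken from lists by role, 73 genes in all, of which 61 were tested. In limma, 0 of the 61 passed an adjusted p of 0.05, as did 0 of all 12231 genes tested (0%). At an unadjusted p under 0.05, 5 were higher (8.20% of the 61, where 3.02% of all genes tested were) and 2 were lower (3.28%, where 4.29% were). Of the 61, 39 had a higher mean in PAHSA (63.9%, where 49.1% of all genes were) and 22 a lower one, with a median difference of 0.10 against -0.01 over all genes. Every PAHSA library was above every vehicle library in 3 of the 61 (4.92%), as in 2.06% of all genes tested. All were below in 1 of the 61 (1.64%), as in 1.95% of all genes tested. Without vehicle replicate 4 the 7 became 4, 2 higher and 2 lower, and with the acinar mean as a covariate 10, 6 higher and 4 lower. The genes named next are those 7 and at least the 2 with the smallest p of each role, and none passed over all genes (limma adjusted p = 0.671 or above).

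**Figure D4:**
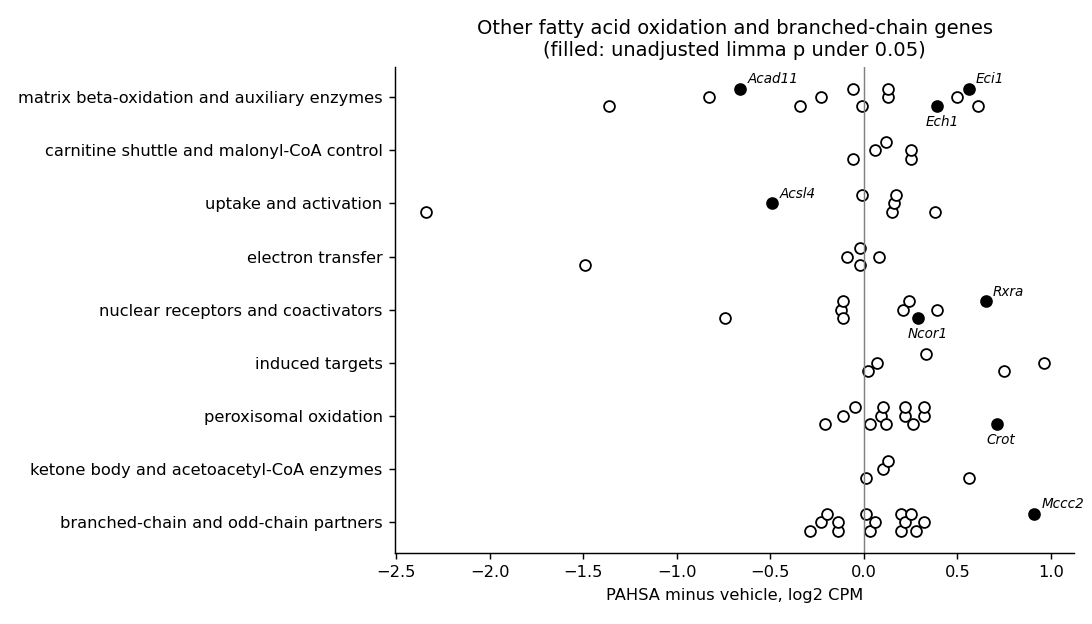
Difference of each other gene, PAHSA minus vehicle in log2 CPM (x axis), by role (y axis); filled circles are the 8 genes with an unadjusted limma p under 0.05, and open circles the others. Ketone body and induced target genes all lie at or right of 0, from 0.01 upward, while other roles fall on both sides.

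The auxiliary enzymes, which mostly work in the matrix and deal with double bonds or other chains and esters, had 6 higher and 7 lower means of 13. Eci1, the isomerase that moves double bonds of unsaturated chains, had 5.04, 5.20, 5.23 and 5.0 log2 CPM in PAHSA, against 4.81, 4.02, 4.85 and 4.58 log2 CPM in vehicle. Every PAHSA library was above every vehicle library, as in 2.06% of all genes tested. Vehicle replicate 3 was the lowest, and the Eci1 difference was 0.56 (SE 0.21). It was 0.38 (SE 0.18) without vehicle replicate 3, and 0.53 or 0.52 without PAHSA replicate 2 or 3, in each no longer at an unadjusted p under 0.05. Ech1, a dienoyl-CoA isomerase, had 5.67, 5.43, 5.63 and 5.57 log2 CPM in PAHSA, against 5.23, 5.39, 4.86 and 5.24 log2 CPM in vehicle. Its groups also did not overlap, by a narrow margin, and the difference was 0.39 (SE 0.16), and 0.30 (SE 0.20) with the acinar mean as a covariate, no longer at an unadjusted p under 0.05. The same held without PAHSA replicate 1, 3 or 4 or vehicle replicate 4, at 0.29 to 0.39. Acad11, a member of the acyl-CoA dehydrogenase family, was lower, at 5.12, 4.96, 4.95 and 5.51 log2 CPM in PAHSA, against 5.57, 5.50, 5.91 and 6.18 log2 CPM in vehicle. PAHSA replicate 4 and vehicle replicate 3 overlapped, and the difference was -0.66 (SE 0.20).

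**Figure D5:**
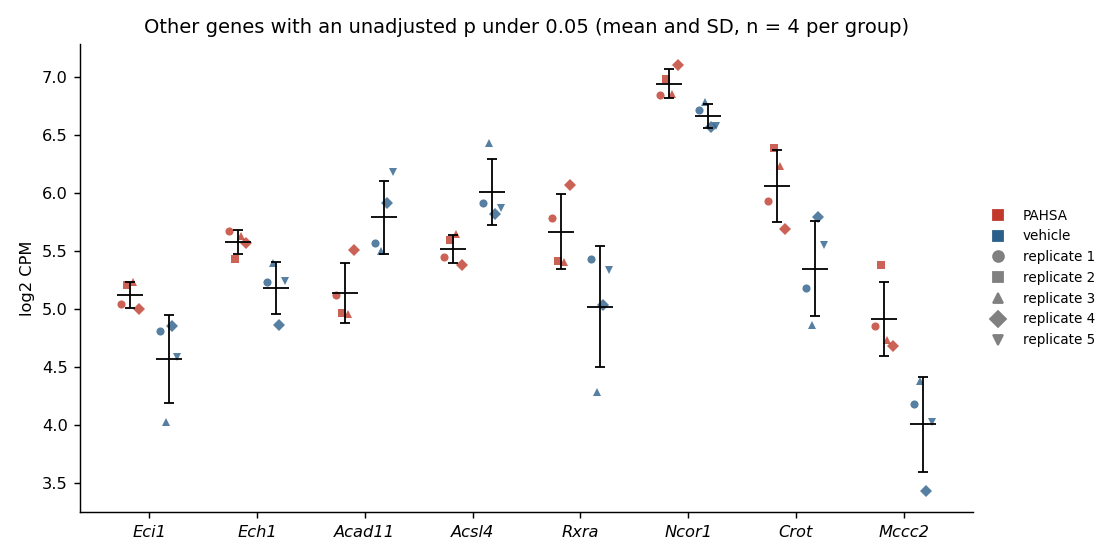
Level in log2 CPM (y axis) in every library of the 8 genes outside the member list with an unadjusted limma p under 0.05, with PAHSA in red and vehicle in blue; marker shape gives the replicate number, the bar the mean and the whiskers the SD of 4 libraries. Eci1, Ech1, Ncor1 and Mccc2 have all PAHSA libraries above vehicle, Acsl4 has all of them below, and Acad11, Rxra and Crot overlap. Of all genes tested, 2.06% had all PAHSA libraries above and 1.95% all below. The 8 genes were picked by p in this same contrast, so nothing is read from their separation.

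Of the 7 tested genes of uptake and activation, which make the acyl-CoA, 4 were higher and 3 lower. Acsl4, a synthetase that favours arachidonic acid, had 5.45, 5.59, 5.64 and 5.38 log2 CPM in PAHSA, against 5.91, 6.43, 5.82 and 5.87 log2 CPM in vehicle. All PAHSA libraries were below all vehicle libraries, as in 1.95% of all genes tested, and vehicle replicate 3 stood above the other 3. The difference was -0.49 (SE 0.16), and -0.35 without vehicle replicate 3. Acsl6, another synthetase, differed by -2.34 (SE 1.41) with PAHSA libraries spread from -3.87 to 2.31 log2 CPM and vehicle libraries from 0.01 to 2.59. The Acsl6 difference was -1.25 without PAHSA replicate 1, -0.67 with acinar markers as covariate and -0.89 on the log2(CPM + 1) scale. In the fits without PAHSA replicate 2 or 3 it was -3.21 or -3.31, there at an unadjusted p under 0.05.

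The carnitine shuttle and malonyl-CoA genes (4 higher and 1 lower of 5) had 0 members at an unadjusted limma p under 0.05 and 0 at an adjusted p under 0.05. Mlycd, which breaks down malonyl-CoA, differed by 0.25 (SE 0.25), and by 0.05 (SE 0.23) without vehicle replicate 3. With the acinar mean as a covariate it differed by 0.66 (SE 0.23), there at an unadjusted p under 0.05. The carnitine transporter gene Slc22a5 differed by 0.25 (SE 0.47), with vehicle replicate 4 at 1.72 log2 CPM far below the rest, and by -0.28 without that library. The electron transfer flavoprotein genes, which take electrons from the dehydrogenases, were 1 higher and 4 lower of 5. Etfa differed by -0.09 (SE 0.14). The methyltransferase gene Etfbkmt differed by -1.49 (SE 1.67), and PAHSA replicate 2 was at the lowest value of its library, -6.15 log2 CPM; without that library the difference was 0.61, of the opposite sign.

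Among nuclear receptors and their cofactors (5 higher and 4 lower of 9), Rxra and Ncor1 had a higher mean at an unadjusted p under 0.05. Rxra, the partner receptor of the PPARs, had 5.78, 5.41, 5.40 and 6.07 log2 CPM in PAHSA, against 5.43, 4.28, 5.03 and 5.33 log2 CPM in vehicle. Only vehicle replicate 1 reached into the PAHSA range, and the difference of 0.65 (SE 0.26) was 0.40 (SE 0.21) without vehicle replicate 3 and 0.44 (SE 0.32) with the acinar mean as a covariate, in both no longer at an unadjusted p under 0.05. The same held without PAHSA replicate 1 or 4 or vehicle replicate 4, at 0.51 to 0.65. Ncor1, a corepressor, had 6.84, 6.98, 6.85 and 7.10 log2 CPM in PAHSA, against 6.71, 6.78, 6.57 and 6.58 log2 CPM in vehicle. Its PAHSA libraries were all above vehicle, as in 2.06% of all genes tested, and it differed by 0.29 (SE 0.11). With the acinar mean as a covariate it differed by 0.19 (SE 0.13), and by 0.23 to 0.28 without PAHSA replicate 2 or 4 or vehicle replicate 4 or 5, in each no longer at an unadjusted p under 0.05. Ppara and Ppargc1a, the receptor and the coactivator best known for inducing the pathway, were not analysed here. The 5 tested induced targets were all higher, 0 of them at an unadjusted limma p under 0.05 or an adjusted p under 0.05. Acot1, an acyl-CoA thioesterase, and Fabp3, a fatty acid binding protein, differed by 0.96 (SE 0.70) and 0.75 (SE 0.55).

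Peroxisomal oxidation, which shortens very long chains, had 10 higher and 3 lower of 13. Crot, which makes carnitine esters for export from the peroxisome, had 5.93, 6.39, 6.23 and 5.69 log2 CPM in PAHSA, against 5.18, 4.86, 5.79 and 5.55 log2 CPM in vehicle. PAHSA replicate 4 lay just below vehicle replicate 4, and the difference was 0.71 (SE 0.23). Acaa1a, the peroxisomal thiolase, differed by 0.32 (SE 0.21). All 4 ketone body and acetoacetyl-CoA genes were higher, 0 of them at an unadjusted limma p under 0.05 or an adjusted p under 0.05. The hydroxybutyrate dehydrogenase gene Bdh1 differed by 0.56 (SE 0.28), and the thiolase gene Acat1 by 0.13 (SE 0.16). The Bdh1 difference was 0.69 without PAHSA replicate 3 or vehicle replicate 1, there at an unadjusted p under 0.05. It was 0.40 (SE 0.29) without PAHSA replicate 4 and 0.26 (SE 0.32) with the acinar mean as a covariate.

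Branched-chain and odd-chain breakdown, which shares the electron transfer flavoprotein and the acetyl-CoA end with fatty acid oxidation, was 10 higher and 5 lower of 15 tested genes, with a median difference of 0.06. Mccc2, a subunit of the carboxylase of leucine breakdown, had 4.85, 5.38, 4.73 and 4.68 log2 CPM in PAHSA, against 4.18, 4.38, 3.43 and 4.02 log2 CPM in vehicle. All PAHSA libraries were above all vehicle libraries, as in 2.06% of all genes tested. The Mccc2 difference was 0.91 (SE 0.26), with an adjusted p of 0.671 over all genes in limma. Mmut, the mutase that takes methylmalonyl-CoA to succinyl-CoA, differed by -0.29 (SE 0.16). Without vehicle replicate 3 it differed by -0.41, there at an unadjusted p under 0.05, and without PAHSA replicate 2 by -0.21 (SE 0.16). Glud1, which encodes the glutamate dehydrogenase that Hadh restrains, was singled out for that link rather than by rule and had a mean of 7.13 ± 0.10 log2 CPM in PAHSA libraries, against 7.27 ± 0.19 log2 CPM in vehicle libraries (SD, n = 4 each), a difference of -0.14 (SE 0.12).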

How the data were processed

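Pancreatic islet RNA of 4 PAHSA and 4 vehicle libraries was sequenced from Nextera XT libraries, per the labels' protocols. The authors deposited log2 CPM, and kallisto and limma are named in the submitters' processing notes with no version. No genome build or annotation is stated in the sources used here. CPM summed to between 965680 and 1069261 per library. The lowest value of each column equals 0.5 added counts, from which estimated counts were recovered as a measure of depth. Symbols, positions and lengths came from GENCODE M21 (GRCm38) by Ensembl identifier; 56 identifiers had no match.

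Genes with a mean log2 CPM above 0 were tested with limma 3.58.1 in R 4.3.3 (lmFit and eBayes with trend, two-sided, Benjamini-Hochberg over 12231 genes, threshold 0.05), checked on simulated data. A difference is the PAHSA mean less the vehicle mean in log2 CPM. The added 0.5 counts draw in ratios between low counts, yet 1 library at the lowest value can still make a difference large. Etfbkmt, with such a library, differed by -1.49, and by -0.15 on the log2(CPM + 1) scale. kallisto shares reads of similar transcripts by a model, so family members are less certain. The members and gene lists were chosen with earlier results of these data known. Named genes were the members, for each other list the 2 with the smallest p and every gene with p under 0.05, and the 6 most like Hadh. Mmut was matched by a synonym. Alternatives changed the scaling, filter, added count, variance model, covariate, pairing, transcript length and libraries.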

Additional observations from a re-analysis of the deposited data

Results flagged for a closer look

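In groups of 4, the highest or lowest library stood apart from the others by Dixon's criterion (the gap to the nearest library over the range of the group) in 5 of the 70 groups examined, where chance gives about 1 in 20. Cpt1a was flagged in both groups. PAHSA replicate 3 was at 6.31 log2 CPM, with the next PAHSA library at 5.55, and vehicle replicate 4 was at 5.62 log2 CPM, with the next vehicle library at 6.04. Acsl4 in vehicle replicate 3 was at 6.43 log2 CPM, with the next at 5.91. Etfbkmt in PAHSA replicate 2 was at -6.15 log2 CPM, the lowest value of that library, with the next at 1.61. Mmut in PAHSA replicate 2 was at 5.44 log2 CPM, with the next at 5.78. The causes of these 5 values were not tested.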

How the results depend on the processing

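The count of genes past an adjusted p of 0.05 was 0 in limma under all 18 alternatives, with 669 to 968 genes at an unadjusted p under 0.05 in fits without 1 library. The Hadh difference kept its sign in 18 of 18, between 0.36 and 0.49. Hadh was chosen by this difference and its groups do not overlap. Its sign could therefore not change in fits without 1 library, and nothing is read from that count. Hadhb, Acadm, Acadl and Cpt1a kept their sign in 18 of 18, and Hadha, Acads, Acadvl, Cpt2 and Echs1 in 14, 16, 15, 14 and 15. Alternatives that changed only the filter or the variance model leave every difference as it was. No sign could change in them, so these counts overstate how steady the signs are. Between 5 and 8 of the 10 members, Hadh included, were higher in PAHSA. The 7 other fatty acid oxidation genes at an unadjusted p under 0.05 became 3 with the replicate block over the libraries numbered 1, 3 and 4, 4 for those 6 libraries without the block (added after seeing the data), 10 (6 higher, 4 lower) when the acinar mean was a covariate, and 4 to 8 in fits without 1 library, with 4 without vehicle replicate 4; the cause was not tested, but the first 2 fits hold fewer samples. Same-numbered libraries deviated with correlations of -0.02 each, and none correlated best with its own number, so the numbers were not taken as pairing. Acsl4 and Mccc2 stayed under an unadjusted p of 0.05 in all 18, and Eci1, Ech1, Acad11, Rxra, Ncor1 and Crot in 13, 12, 16, 12, 10 and 17. The Hadh level over all 8 libraries, 74.5 CPM per kb, was 56.1 with the union of exons and 156 with the longest coding transcript (added after seeing the data), since the length divides it. With 4 libraries a group, the intervals of the members besides Hadh reach as far as 0.33 to 1.14 from 0.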
